A study of Mus musculus with 4 samples.

Results

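The regions described here are the Bmal1 ChIP-seq peaks that the study's annotation places nearest to 7 genes of retinal neuron fate, Otx2, Otx2os1, Prdm1, Thrb, Prdm13, Tfap2b and Hmx1. They were chosen by gene name, as every row that carries one of these names in the narrow and the broad peak lists of each library and of the pooled libraries of each age. This gave 108 rows of the 94075 in 12 lists, 24 of them narrow and 84 broad, and all 7 genes had at least 1 row. Of all curated RefSeq genes, 46.0% had a row in at least 1 of the 12 lists, 25.3% in a narrow one and 40.9% in a broad one. Of the 7 names, 6 stood in a narrow list, where Otx2 was missing, and 6 in a broad list, where Hmx1 was missing. The 7 genes were chosen with results of these data known, so these counts are a description.

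The libraries came from whole mouse retina taken at postnatal day 5 (P5, replicates 2 and 3) and at postnatal day 3 (P3, replicates 4 and 5), both at zeitgeber time 4, counted from lights on. In both ages the chromatin was precipitated with an antibody against Bmal1, and 1 library of unprecipitated input DNA was the background for all 4. The labels give no genotype, sex or number of retinas per library, and the catalogue numbers given for the antibody differ between the labels and the methods of the study. The lists rested on 62.0 and 68.3 M tags (M stands for 1000000) for P5 replicates 2 and 3 and on 55.2 and 65.7 M for P3 replicates 4 and 5. The pooled narrow lists held 486 peaks at P5 and 3625 at P3. Single narrow lists held 200 and 1336 peaks for P5 replicates 2 and 3 and 9543 and 944 for P3 replicates 4 and 5. P3 replicate 4 stood apart, so results that rest on it are given by library. Peak lists measure no expression, and in whole retina a change in the share of a cell type and a change in occupancy per cell cannot be told apart.

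Bmal1 is a basic helix-loop-helix protein that pairs with CLOCK and binds E-boxes, short palindromic elements whose canonical form is CACGTG. The fate genes named above encode regulators that retinal progenitors and newborn neurons use to become one cell type or another. Otx2 is a homeodomain factor needed for photoreceptors and bipolar cells, and Otx2os1 is a noncoding RNA transcribed from the opposite strand beside it. Prdm1 (Blimp1) is a zinc finger repressor that holds newborn cells to the photoreceptor fate against the bipolar one. Thrb encodes thyroid hormone receptor beta, which sets the opsin that cones use. Prdm13 is a zinc finger protein and Tfap2b an AP-2 factor of amacrine cells, and Tfap2b also acts in horizontal cells. Hmx1 is a homeobox factor of eye and ear development.

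The sequences below are narrow peaks of these genes, read from the GRCm38 (mm10) reference on its forward strand. Capitals mark matches to the E-box as the study defined it, that is CACGTG or a variant in which the third letter may be T and the fourth may be T. The forms searched were thus CACGTG and CATGTG, and also CACTTG and CATTTG, each on either strand. The first 4 hold every match found in a narrow peak of these genes, and together they show how far the matches differ from CACGTG. The others carry no match and are shown because they are the only P5 peak and 3 of the P3 peaks that a single library also listed. The study's own list of P3 genes with E-boxes names Otx2os1. The peak of Otx2os1 printed here holds no match within its bounds and 2 when 300 bp on either side are added. The reason for the difference was not tested.
Prdm13, P3 pooled, chr4:21704163-21704327: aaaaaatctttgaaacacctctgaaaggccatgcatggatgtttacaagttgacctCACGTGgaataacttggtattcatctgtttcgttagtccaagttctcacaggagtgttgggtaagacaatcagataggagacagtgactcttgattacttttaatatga
Prdm13, P3 pooled, chr4:21479837-21480001: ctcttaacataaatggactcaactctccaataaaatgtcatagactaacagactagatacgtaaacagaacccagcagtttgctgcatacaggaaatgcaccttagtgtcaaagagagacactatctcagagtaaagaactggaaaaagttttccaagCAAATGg
Hmx1, P3 pooled, chr5:35441796-35441960: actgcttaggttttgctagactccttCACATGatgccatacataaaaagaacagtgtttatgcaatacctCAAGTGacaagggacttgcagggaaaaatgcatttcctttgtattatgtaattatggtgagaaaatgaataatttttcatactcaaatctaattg
Prdm1, P3 replicate 4, chr10:44694721-44694865: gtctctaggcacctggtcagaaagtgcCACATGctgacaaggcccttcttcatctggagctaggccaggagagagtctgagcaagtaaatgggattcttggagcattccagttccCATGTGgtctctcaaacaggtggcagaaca
Thrb, P5 pooled, chr14:17879685-17879823: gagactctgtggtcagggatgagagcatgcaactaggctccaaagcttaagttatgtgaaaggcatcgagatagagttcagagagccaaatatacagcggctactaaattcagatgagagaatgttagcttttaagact
Thrb, P3 pooled, chr14:17850301-17850465: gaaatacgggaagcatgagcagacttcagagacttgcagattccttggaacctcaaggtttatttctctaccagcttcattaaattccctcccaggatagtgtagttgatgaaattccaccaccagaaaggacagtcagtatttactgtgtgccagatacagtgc
Otx2os1, P3 pooled, chr14:48741056-48741220: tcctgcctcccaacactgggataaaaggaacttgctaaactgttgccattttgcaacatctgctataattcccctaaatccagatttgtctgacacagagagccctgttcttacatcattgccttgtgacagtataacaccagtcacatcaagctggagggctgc
Prdm1, P3 pooled, chr10:44713481-44713645: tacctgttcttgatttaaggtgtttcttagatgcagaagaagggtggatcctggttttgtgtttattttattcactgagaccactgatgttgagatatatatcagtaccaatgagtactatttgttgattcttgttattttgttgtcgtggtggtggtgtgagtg

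The first comparison asked how many of the fate genes had a pooled narrow peak at each age. A peak was listed for 1 of 7 at P5 (Thrb) and for 6 of 7 at P3 (Thrb, Prdm13, Tfap2b, Prdm1, Hmx1 and Otx2os1), while 1.65% of all curated RefSeq genes had one at P5 and 9.29% at P3. In peaks this was 1 at P5, nearest to Thrb, and 12 at P3, of which 4 were nearest to Thrb, 3 to Prdm13, 2 to Tfap2b and 1 each to Prdm1, Hmx1 and Otx2os1. By library the narrow lists held 0 and 0 peaks of these genes in P5 replicates 2 and 3, and 11 and 0 in P3 replicates 4 and 5. All 11 therefore came from P3 replicate 4, and the other P3 library had as many as the libraries of P5. The share of all genes with a narrow peak was 0.695% and 4.17% in P5 replicates 2 and 3, and 19.4% and 3.03% in P3 replicates 4 and 5. The mean number per library differed by -5.5 (P5 minus P3, n = 2 libraries each), with a two-sided exact permutation p of 1.0. Only 1 library held any such peak, so every way of splitting the libraries gives a difference of this size. This p was therefore fixed by the counts, and no conclusion about age is drawn from it. For other counts, the smallest p that 2 libraries against 2 can give is 0.333. Nor do the labels say that the libraries of an age came from separate litters.

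The broad lists gave 2 of 7 genes at P5 (Thrb and Tfap2b) and 6 of 7 at P3, beside 9.05% and 21.8% of all genes. By library they held 9 and 10 regions of the 7 genes in P5 replicates 2 and 3, and 35 and 6 in P3 replicates 4 and 5, so the counts of P5 lay between those of the P3 libraries. Relative to the size of each list there were 1.21 and 1.01 regions per 1000 in P5 replicates 2 and 3, and 1.38 and 0.556 in P3 replicates 4 and 5. The difference of -11.0 regions (P5 minus P3, n = 2 each) had a two-sided exact permutation p of 1.0. Of all genes, 12.8% and 16% had a broad region in P5 replicates 2 and 3, and 28.3% and 15.7% in P3 replicates 4 and 5. Both ages overlapped in this measure, and the higher count at P3 was that of replicate 4.

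**Figure D1:**
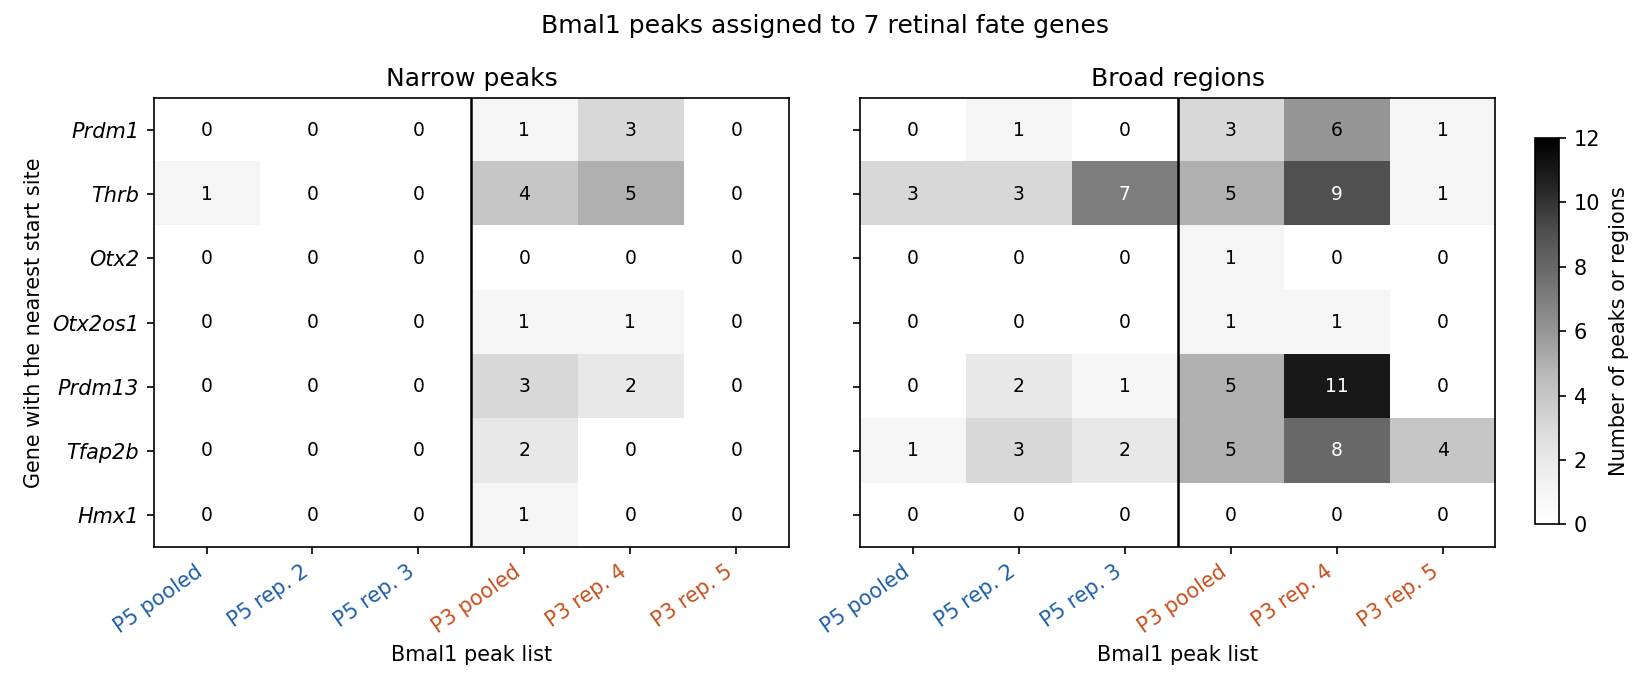
Number of narrow peaks (left) and broad regions (right) assigned to each of the 7 genes (rows) in each peak list (columns, P5 left of P3), with darker cells for higher counts. Narrow peaks of P3 stand in the pooled list (12) and in replicate 4 (11), with 0 in replicate 5, and P5 has 1, in the pooled list.

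Among the genes of the photoreceptor fate, Otx2 had a single row in all 12 lists. It was a broad region of the pooled P3 libraries, chr14:48591190-48591690, with a score of 3.81 (46 tags), in intergenic sequence 71.4 kb downstream of the start site. The score counts tags per 10 M tags of the list. It was higher than 6.22% of that list, near its low end, and no single library listed the place.

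Otx2os1 starts 1.64 kb from Otx2 on the other strand, and all 4 of its rows fell on 1 place in the last intron of its transcript NR_029384 (intron 4 of 4). The narrow peak printed above scored 2.56 in the pooled P3 list and 4.89 in P3 replicate 4, and the broad region scored 6.37 in the pooled P3 list and 10.2 in P3 replicate 4. Neither P5 library, nor the P5 pool, nor P3 replicate 5 listed it. The place lies 71.8 kb downstream of the Otx2os1 start site and 73.5 kb from that of Otx2. In P3 replicate 4 the broad region ranked above 98.6% of its list, and in the pooled P3 list above 96.1%. Of all places of the 7 genes it was the only one listed both as narrow and as broad, in the pool and in 1 of its libraries.

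Prdm1 had 15 rows at 13 places, all upstream of its start site, 1 at P5 and 12 at P3. The P5 place was a broad region of replicate 2, 11.5 kb upstream (score 4.52, 28 tags), the nearest of all Prdm1 rows. At P3, replicate 4 listed 8 places and replicate 5 listed 1, at 49.0 kb (score 4.26). None of the 13 was shared by 2 libraries.

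The pooled narrow peak of Prdm1, printed above, at 255 kb upstream in an L1 LINE element, scored 2.73 at P3, higher than 63.3% of the list. Replicate 4 listed the same place with a narrow score of 5.26 and a broad score of 7.79, and the other 3 libraries did not list it. The other narrow peaks of replicate 4 lay 113 kb and 236 kb upstream (scores 3.81 and 3.63), and the farther of them holds the CACATG and CATGTG printed above. Measured against curated RefSeq, 11 of the Prdm1 rows, the pooled narrow peak among them, lie nearer to the start of the noncoding gene 4930431F10Rik, so the name Prdm1 at these rows depends on the annotation.

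Thrb had the most rows, 38 at 26 places, and was the only one of the 7 with a narrow peak at P5. The gene has 2 curated start sites 321 kb apart, and 13 places lie between them, 10 upstream of both and 3 beyond both. By age, 10 places were listed at P5 alone, 15 at P3 alone and 1 at both. In single libraries there were 3 and 7 places in P5 replicates 2 and 3, and 13 and 1 in P3 replicates 4 and 5. P5 replicate 3 thus had more than P3 replicate 5, and P3 replicate 4 had the most.

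The narrow Thrb peak of P5, printed above, lies in intron 2 of 9 of NM_001113417, 102 kb upstream of the nearer start site. Its score was 2.15 (28 tags), higher than 13.2% of the pooled P5 list, whose lowest peak had 25 tags. It overlapped no narrow or broad peak of P5 replicate 2 or 3, while of all pooled P5 narrow peaks 3.70% overlapped a narrow and 9.67% a broad call of replicate 2, and 21.2% and 16.7% those of replicate 3. No list of P3 held it, and the pooled P3 narrow peak in the same intron is a separate place.

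At P3 the pooled narrow peaks of Thrb scored 3.14, 2.81, 3.14 and 2.90 at 208, 201, 125 and 131 kb upstream of a start site. The first 3 lie in intergenic sequence before the gene, and the last lies in intron 2 of 9. Replicate 4 listed the peaks at 201 kb (3.99) and 131 kb (5.26) as narrow and those at 125 kb (6.89) and 131 kb (6.34) as broad, and replicate 5 listed none of the 4. The peak at 125 kb overlaps a LINE, and 70.4% of its 31-base words occur once in the genome while the most frequent has 273 copies, so this sequence is in part not unique. The peaks at 208, 201 and 131 kb consist only of words found once.

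P3 replicate 4 listed 3 further narrow peaks of Thrb that were in no other list, at 117 and 152 kb downstream of the first start site and 79.5 kb upstream of the second, with scores of 3.81, 3.81 and 3.99. The broad regions of Thrb scored 3.84, 4.22 and 4.07 in the pooled P5 list, and from 3.31 to 4.63 over 5 regions in the pooled P3 list. Both ranges overlap. The P5 regions at 56.5 and 12.6 kb upstream were also listed in P5 replicate 3 (5.13 and 4.54) and the one at 84.8 kb downstream in P5 replicate 2 (5.16), and none of the 3 was listed at P3. P3 replicate 5 had 1 region, 99.5 kb beyond the second start site, with the highest broad score of Thrb, 8.37 (55 tags over 925 bp), and it overlaps a simple repeat.

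Of the amacrine genes, Prdm13 had 24 rows at 17 places, 3 at P5 alone and 14 at P3 alone. Single libraries listed 2 and 1 places in P5 replicates 2 and 3, and 12 and 0 in P3 replicates 4 and 5, so no library other than replicate 4 had more than 2. Of the 17 places, 15 lie downstream of the gene, out to 406 kb, and 2 lie upstream. The P5 regions were 378 and 342 kb downstream in replicate 2 (scores 5.00 and 4.68) and 21.6 kb downstream in replicate 3 (4.25).

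The pooled narrow peaks of Prdm13 at P3 scored 3.47, 2.40 and 2.40. The highest, 206 kb downstream in an L1 element, stood above 98.4% of the list and was the highest pooled narrow score of the 7 genes. It was broad in the P3 pool (4.63) and in replicate 4 (7.07), and 93.3% of its words occur once. Its E-box match, CAAATG, lies near the end of the peak.

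The peak 18.3 kb upstream of Prdm13 is the one that holds CACGTG, in an L2 LINE whose words all occur once. Its score of 2.40 (29 tags) was higher than 23.6% of the P3 list, and replicate 4 listed a broad region over it (5.62, 31 tags), while replicate 5 and both P5 libraries did not. The third peak, 406 kb downstream, scored 2.40 in the pool and 3.63 as a narrow call of replicate 4. A further narrow peak of replicate 4, 6.69 kb upstream, was the nearest to a start site among all 108 rows, with a score of 2.54 (14 tags) that only 0.157% of that list fell below.

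Tfap2b had 25 rows at 21 places, of which 20 lie downstream of the gene, out to 570 kb, and 1 upstream. By age, 5 places were listed at P5 alone, 15 at P3 alone and 1 at both. Single libraries listed 3 and 2 places in P5 replicates 2 and 3, and 8 and 4 in P3 replicates 4 and 5. This was the only one of the 7 genes with more than 1 place in P3 replicate 5, at 482, 487, 531 and 554 kb downstream with broad scores of 5.78, 4.41, 5.63 and 5.17, and none of these 4 overlapped a region of another library.

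Both pooled narrow peaks of Tfap2b at P3 were in no list of a single library. The peak 483 kb downstream (score 2.56) was also a broad region of the pool (4.22). The other, 183 kb downstream, had the lowest pooled narrow score of the 7 genes at that age, 2.15 (26 tags), above 2.43% of the list, and lies in a LINE where 70.4% of the words occur once and the most frequent has 61 copies. At P5 the pool listed 1 broad region, 261 kb downstream (3.99), which no single library listed. Tfap2d, another AP-2 gene, starts 106 kb from Tfap2b.

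Hmx1 had 1 row in the 12 lists, the narrow peak of the P3 pool printed above, 52.8 kb downstream in intergenic sequence that overlaps a DNA transposon (Charlie17). Its score was 2.65 (32 tags), above 55.4% of the list. No single library and no broad list held the place. It carries the matches CACATG and CAAGTG and is the only pooled narrow peak of the 7 genes with more than 1.

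**Figure D2:**
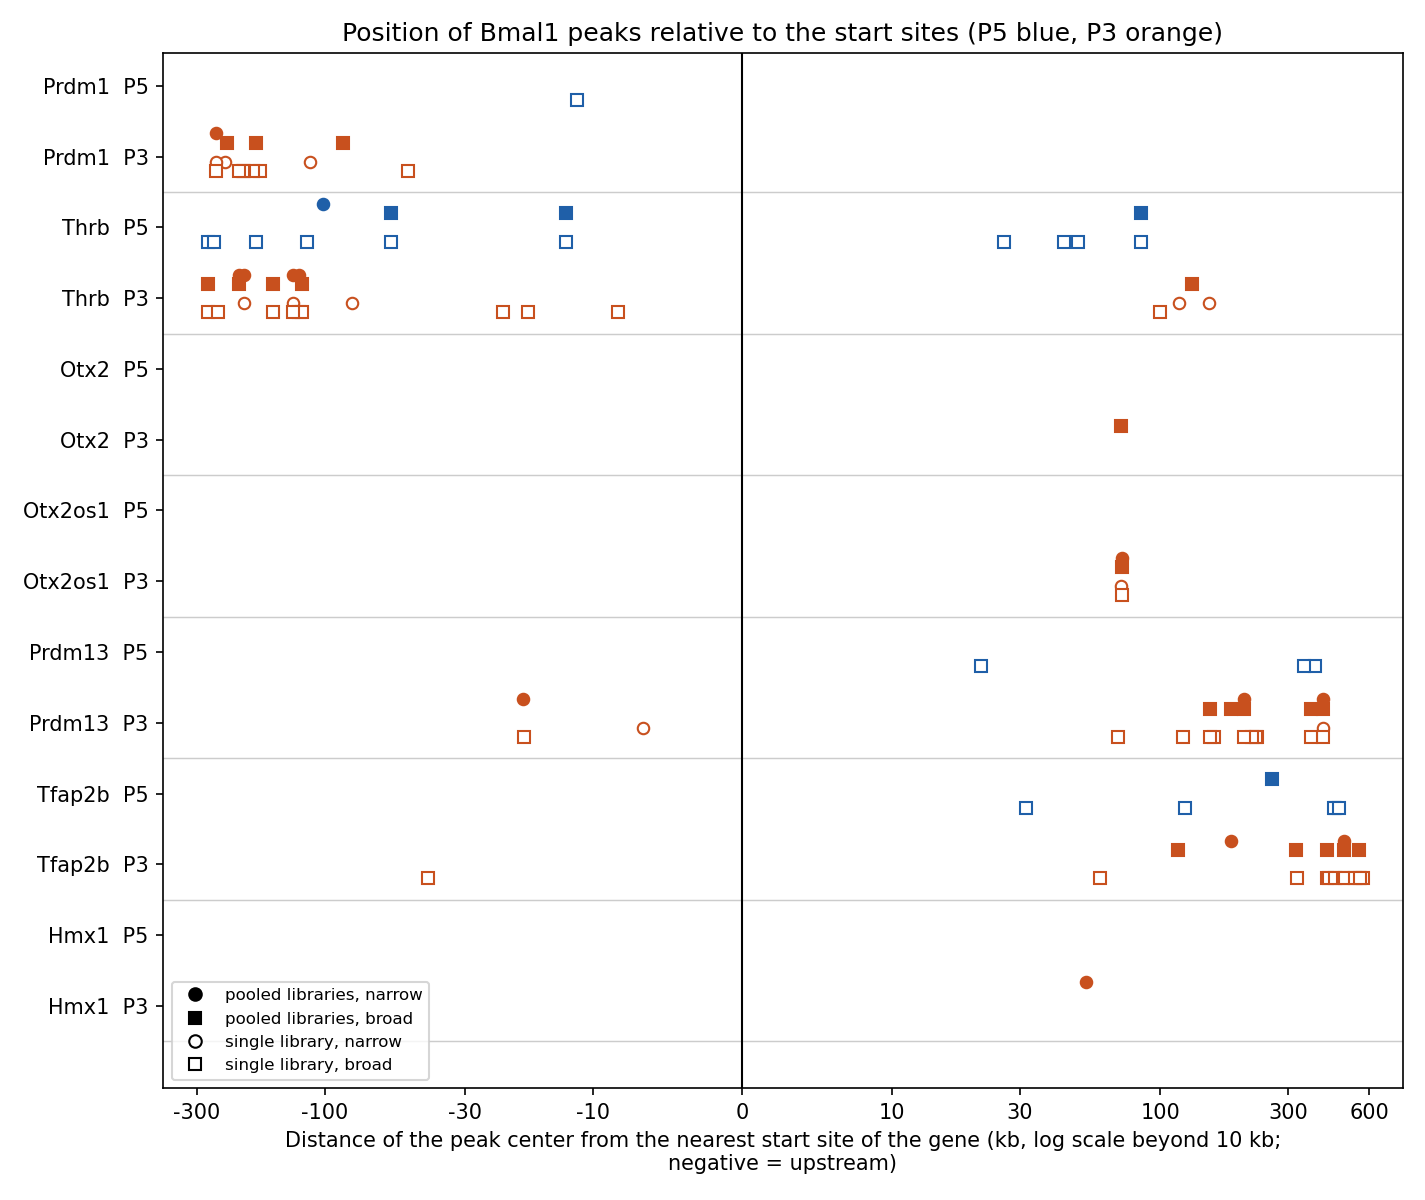
Signed distance of each peak center from the nearest start site of its gene, on a log scale beyond 10 kb, for P5 (blue, upper line of each gene) and P3 (orange, lower line). Filled marks are pooled libraries, open marks single libraries, circles narrow peaks and squares broad regions; no mark lies within 1 kb of a start site, and the nearest, 6.69 kb upstream of Prdm13, is from P3 replicate 4.

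As to position, none of the 108 rows was annotated to a promoter or an exon, and no peak of any list lay within 1 kb of the 10 promoters that RefSeq gives for 6 of the genes. The share of all rows at promoters or exons is not given here, so this absence is not shown to be particular to these genes. Of the 12 pooled narrow peaks at P3, 10 were intergenic, while the list as a whole was 67.8% intergenic. Their median distance from the start site was 192 kb against 75.3 kb for all pooled P3 narrow peaks. Of the 12, 3 lay within 100 kb and 0 within 10 kb, and the shares of the whole list within these distances are not given here. A repeat was overlapped by 7 of 12 and a LINE by 5 of 12, beside 36.2% and 20.0% of the list. The broad regions had median distances of 70.7 kb at P5 (4 regions) and 195 kb at P3 (20 regions), against 128 and 125 kb in their lists.

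Thrb, Tfap2b and Prdm13 stand in wide gene-poor intervals, and an annotation by nearest start site assigns every peak in such an interval to the gene. The interval of a gene is the sequence nearer to its start sites than to any other curated one. It spans 0.727 Mb for Thrb, 0.627 Mb for Tfap2b and 0.475 Mb for Prdm13. For the others it spans 0.190 Mb for Prdm1, 0.114 Mb for Otx2, 0.106 Mb for Otx2os1 and 0.0686 Mb for Hmx1. The median gene has 0.043 Mb, and the interval of Thrb is larger than those of 98.2% of genes, that of Hmx1 larger than those of 65.4%. The order of the intervals is also that of the row counts for the first 4 genes. The part of interval size in the counts was not tested, and the counts are given per Mb below.

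By this assignment the 7 genes had 0.434 narrow peaks per Mb at P5 and 4.77 at P3 in the pooled lists, against 0.184 and 1.37 over the genome. In whole peaks these are 1 at P5, where the density of the genome would give 0.423, and 11 at P3, where it would give 3.16. In the single libraries of P5 the narrow lists had 0 near the 7 genes, against 0.0755 and 0.505 per Mb over the genome in replicates 2 and 3. P3 replicate 4 had 3.90 per Mb near the 7 genes and 3.60 over the genome, and P3 replicate 5 had 0 and 0.357. The broad regions were at 1.73 per Mb at P5 and 7.80 at P3, against 1.81 and 7.42 over the genome. Apart from the single P5 peak, the pooled narrow list of P3 was the only one of the 12 lists in which the density near these genes was more than 1.5 times that of the genome. The genes were chosen with results of these data known, and the study's own list of P3 genes with E-boxes names Prdm13, Hmx1 and Otx2os1. This density is therefore a description and no test of an excess.

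**Figure D3:**
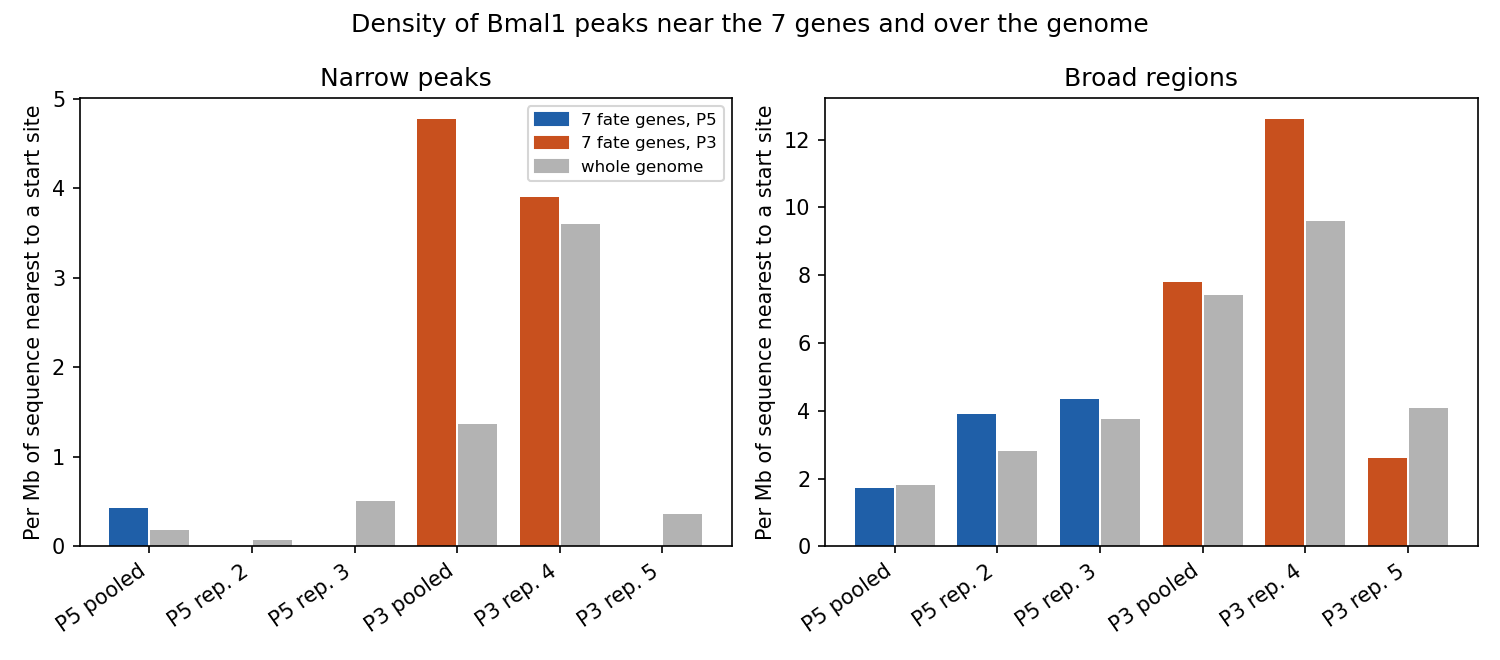
Narrow peaks (left) and broad regions (right) per Mb of sequence nearest to the start sites of the 7 genes (colored bars, P5 blue and P3 orange) and over the whole genome (gray bars), by list, P5 left of P3. The pooled narrow list of P3 has 4.77 per Mb near the genes and 1.37 over the genome, and P3 replicate 4 has 3.90 and 3.60. The genes were chosen with results of these data known.

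Whether the same places were listed in more than 1 library was asked next. Merged by overlap of at least 1 bp, the 108 rows form 80 places, of which 63 stood in the lists of 1 library, 2 in those of 2 libraries, 0 in those of 3 or 4, and 15 in a pooled list alone. By age, 19 places were listed at P5 alone, 59 at P3 alone and 2 at both. The like shares over all merged places of the lists are not given here, and P3 replicate 4 had the longest lists (9543 narrow peaks and 25380 broad regions). These counts of places, and those by gene above, therefore describe the 7 genes and show nothing particular to them. No narrow peak of the 7 genes at P5 overlapped one at P3 (0 of 1, with 1.65% of all pooled P5 narrow peaks overlapping one of P3, and 0 of 12 at P3, with 0.221% the other way). The pooled broad regions did not overlap between the ages either, 0 of 4 at P5 (6.84% of the list) and 0 of 20 at P3 (1.66%).

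Of the 11 narrow peaks of P3 replicate 4, 0 overlapped a narrow peak of another library, beside 0.231% of its list. The broad regions that overlapped one of another library were 1 of 9 in P5 replicate 2 (list 9.79%), 1 of 10 in P5 replicate 3 (8.24%), 2 of 35 in P3 replicate 4 (5.16%) and 0 of 6 in P3 replicate 5 (8.83%). Both shared places joined a P5 library with P3 replicate 4, and none joined the 2 libraries of 1 age.

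One shared place lies 273 kb upstream of Thrb, where P5 replicate 3 listed chr14:17387490-17387990 with a score of 4.83 (33 tags) and P3 replicate 4 listed chr14:17387420-17387920 with 5.80 (32 tags). The P3 pool listed it too (4.30), and P5 replicate 2 and P3 replicate 5 did not. The other lies 450 kb downstream of Tfap2b, where P5 replicate 2 had 4.52 (28 tags) and P3 replicate 4 had 10.2 (56 tags), and neither pool listed it. The 215 bases that both libraries share there, shown because they are the only stretch near Tfap2b listed at both ages, hold no match to the E-box.
Tfap2b, shared by P5 replicate 2 and P3 replicate 4, chr1:19661803-19662017: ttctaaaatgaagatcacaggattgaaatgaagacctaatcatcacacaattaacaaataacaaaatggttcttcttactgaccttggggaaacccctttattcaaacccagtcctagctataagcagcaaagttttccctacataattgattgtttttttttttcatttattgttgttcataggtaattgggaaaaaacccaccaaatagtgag

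The pooled P3 narrow peaks were compared with the lists of their own libraries. Of the 12, 5 overlapped a narrow peak of replicate 4 (24.6% of the pooled list did) and 7 a broad region of it (23.0%), and 0 overlapped a narrow (3.14%) or a broad (5.82%) call of replicate 5. Of the 12, 8 were in a narrow or a broad list of replicate 4, and 4 (both of Tfap2b, that of Hmx1 and the Thrb peak at 208 kb) were in no list of a single library.

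Since the scores are whole multiples of the value of 1 tag, within 0.0052, they can be read as tags. The pooled narrow peak of Prdm1 had 33 tags, and replicate 4 had 29 at that place, which equals 87.9% of the pooled tags, whereas replicate 4 supplied 45.6% of the pooled depth. The like values were 27 of 31 tags for Otx2os1 (87.1%), 29 of 35 for Thrb at 131 kb (82.9%), 20 of 29 for Prdm13 at 406 kb (69.0%) and 22 of 34 for Thrb at 201 kb (64.7%). In all 5 the share of replicate 4 was above its share of the depth. Only peaks that replicate 4 listed by itself enter here, which favors a high share, so no conclusion is drawn from it. The other pooled narrow peaks have no narrow call of replicate 4 to compare. The windows of the pool and the library are not identical, with centers up to 40 bp apart, so these shares are approximate.

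Among the broad regions of the pools, 9 at P3 had a counterpart in replicate 4, whose tags equaled 56.4 to 92.5% of the pooled ones. The highest was a Tfap2b region 419 kb downstream with 49 tags beside 53, and Otx2os1 had 56 beside 77 (72.7%). The windows differ, and this Tfap2b region spans 857 bp in replicate 4 and 500 bp in the pool. Centers of the P3 pairs lie up to 97 bp apart. The tags of the library are thus not strictly a part of the pooled ones, and the shares are approximate. At P5, 3 Thrb regions had a counterpart. Replicate 3 had 35 tags beside 50 (70.0%) and 31 beside 55 (56.4%) at 52.4% of the depth. Replicate 2 had 32 beside 53 (60.4%) at 47.6%. All 12 shares were above the library's share of the depth, and only regions that a library listed by itself enter this comparison.

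**Figure D4:**
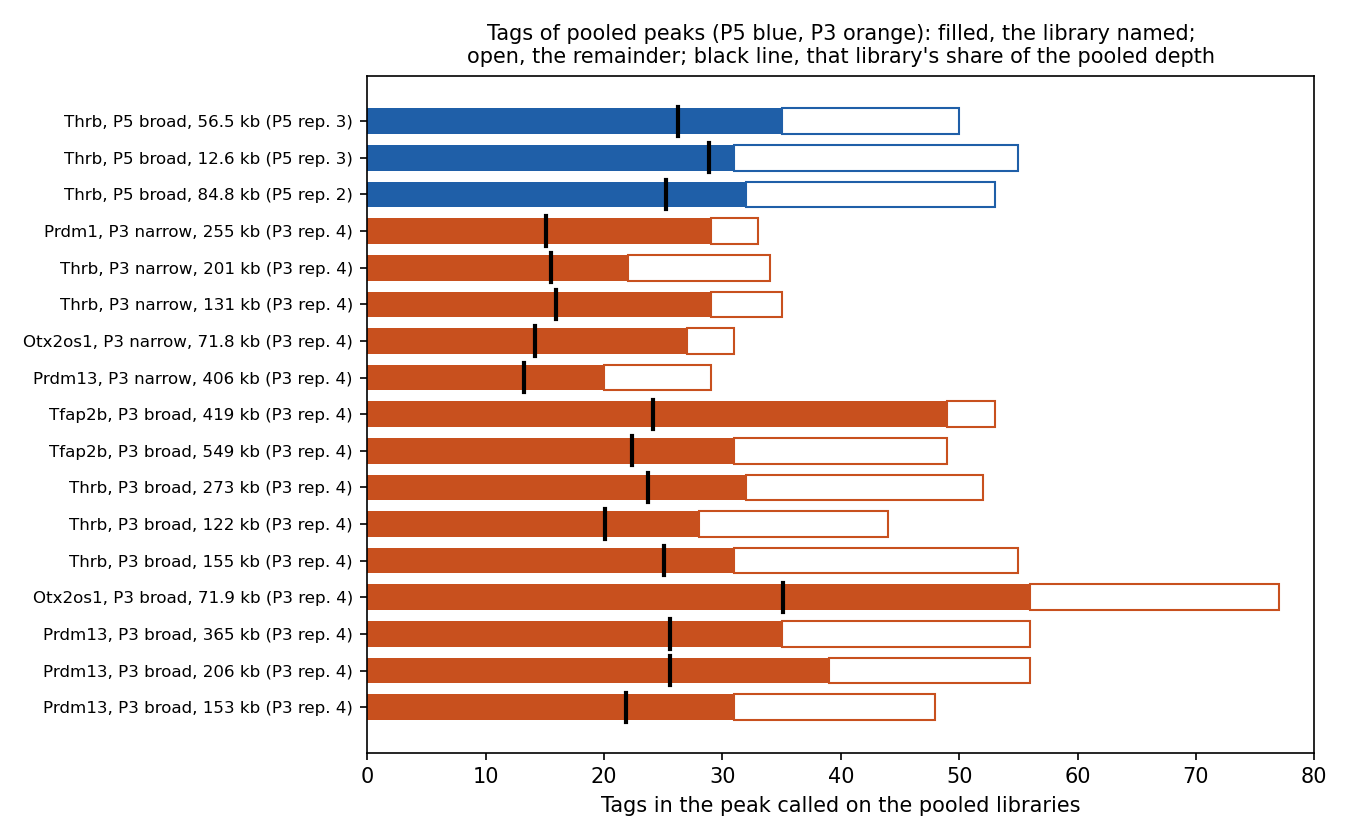
Tags in each peak of the pooled libraries that was also called in 1 library (P5 blue, above, and P3 orange, below), split into the tags of that library (filled) and the remainder (open), with a black line at the tags that the library's share of the pooled depth would give. At P3 the library is replicate 4 in each bar, with 29 of 33 tags for Prdm1 and 27 of 31 for Otx2os1. The windows of the pool and the library differ, so the split is approximate.

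The E-box content of the narrow peaks was compared with that of the whole lists, in the same windows. At P5 0 of 1 peak of these genes held a match, beside 31.7% of the list, and at P3 3 of 12, beside 33.1%. CACGTG itself was in 0 of 1 at P5 (0.206% of the list) and in 1 of 12 at P3 (1.27%), the Prdm13 peak 18.3 kb upstream. With any CANNTG counted, there were 1 of 1 at P5 (53.5%) and 5 of 12 at P3 (54.9%). In P3 replicate 4, 1 of 11 peaks held a match (29.2%), 0 of 11 CACGTG (1.08%) and 2 of 11 any CANNTG (51.2%). Among the broad regions, which are wider, CACGTG also stood in regions of Thrb and Tfap2b in P5 replicate 3. In P3 replicate 4 it stood in broad regions of Thrb and Prdm13. No share of the broad lists is given for comparison. The GC content of the P5 peak was 42.4%, against a median of 38.1% in its list. The median over the 12 pooled P3 peaks was 36.7%, against 35.8% in the list, and over the 11 of P3 replicate 4 it was 42.1%, against 37.2%.

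In the promoters, 250 bases before to 50 after each start in RefSeq (GRCm38.p6), 5 of 10 held a match and 1 of 10 held CACGTG, beside 40.4% and 7.15% of 32851 mouse promoters. The matches were CATTTG for Tfap2b, Prdm1 and 1 start of Otx2, CACATG for another start of Otx2, and CACGTG for the second start site of Thrb. None of these had a peak within 1 kb. A match says only that these letters are in the window, and a place missing from a list says only that it was not called there.

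Other transcription factors of retinal fate were taken from a list of 79, which holds 6 of the 7 genes and 73 others. At P5 0 of the 73 others had a pooled narrow peak (all genes 1.65%), and at P3 10 of 73 (13.7%, all genes 9.29%). In the broad lists these were 16 of 73 at P5 (21.9%, all genes 9.05%) and 38 of 73 at P3 (52.1%, all genes 21.8%). The intervals of these genes vary, with 0.868 Mb for Isl1 and 0.0317 Mb for Pou4f1, against 0.043 Mb for the median gene. The counts of the 73 were not set against interval size, so its part in them was not tested. With the members included, the pooled narrow list of P3 named 4 of 12 photoreceptor and 1 of 10 bipolar factors. It named 4 of 22 amacrine and horizontal, 2 of 16 ganglion cell and 4 of 19 progenitor and glial factors. The share of all genes in that list was 9.29%. By library, narrow peaks were listed for 1 and 8 of the 79 in P5 replicates 2 and 3 (all genes 0.695% and 4.17%), and for 28 and 4 in P3 replicates 4 and 5 (all genes 19.4% and 3.03%).

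The 10 other genes with a pooled narrow peak at P3 were Tbx20, Lmo4, Hey1, Rorb, Tfap2d, Nfib, Tox, Olig2, Isl1 and Mef2c. Rorb, a nuclear receptor needed for rods, had an upstream peak of 2.90 that P3 replicate 4 also listed. The nearest to a start site was a peak of Tox, 3.38 kb downstream with a score of 2.40. Hey1, a Notch effector, had one of 2.90 at 5.07 kb downstream. Tbx20, a T-box factor of ganglion cells, had one of 3.06 at 5.96 kb upstream. These peaks all lay nearer to their start sites than any pooled peak of the 7 genes. Tfap2d had one of 2.90 at 405 kb upstream, the only one of the 10 genes' peaks that P3 replicate 5 also listed. No pooled P3 narrow peak of the 10 genes overlapped a narrow peak of a P5 library. At other places, Isl1 and Mef2c had narrow peaks in P5 replicate 3. Rorb, Mef2c, Isl1, Tfap2d, Nfib and Tox had broad regions in P5 replicates 2 and 3, and Tbx20 in replicate 3. Lmo4, Hey1 and Olig2 had neither kind in a P5 library.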

How the data were processed

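Reads were trimmed with Trim Galore after bcl2fastq and aligned with bowtie2 (the labels give Bowtie) to GRCm38 (mm10), and the authors called peaks against 1 input library. MACS2 is named as the caller and HOMER's annotatePeaks in the headers of the lists, and no source used here gives versions or thresholds. The labels also list hg38, while coordinates and gene names are those of mouse. The deposited peak score is a signal in tags per 10 M (1000000) tags, scaled to depth by the authors. The authors' annotation gives the distance to the nearest start site in bp. The list that pools all 4 libraries was left out.

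Members were found by gene name. The members and gene lists were chosen with earlier results of these data known. All members are named in every list, and of the other fate factors those with a pooled narrow peak. The tag total behind a list follows from the value of 1 tag, taken as the largest step that divides all its scores within 0.0052. Rows that overlap by at least 1 bp were merged into places. Lists were compared by overlap of at least 1 bp, E-boxes were searched on both strands, and counts stand beside the share of 26180 curated RefSeq genes or of all peaks of the same list. The sequence nearest to each curated start site of GRCm38.p6 was measured without assembly gaps. The number of copies of each 31-base word was counted on both strands of the reference chromosomes. The libraries of P5 and P3 were compared with a two-sided exact permutation test. The overlap, motif and assignment code was tested on simulated data. As alternatives, results were recomputed with broad lists, scores in the upper 50%, peaks within 100 kb of a start site, RefSeq assignment, different motif letters and windows, stricter or looser overlap and single libraries. Calculations used Python 3.11.15, numpy 2.4.6, pandas 2.3.3, scipy 1.17.1, numba 0.67.0 and matplotlib 3.10.9.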

Additional observations from a re-analysis of the deposited data

How the results depend on the processing

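The deposited lists give calls, so leaving out a library means using the list of the one library left. No paired analysis was possible because the libraries of P5 (replicates 2 and 3) and of P3 (replicates 4 and 5) share no replicate number. The exact test across libraries cannot pass 0.05, and a place that was not called cannot be told from one without signal. The lowest called peaks of the pooled narrow lists had 25 tags at P5 and 22 at P3, and the caller's threshold is not given.

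In broad instead of narrow lists, the members with a peak were 2 at P5 (main value 1), the peaks 4 at P5 (1) and 20 at P3 (12), the fate factors 18 at P5 (1) and 43 at P3 (15), the density near the members 1.73 per Mb at P5 (0.434) and 7.80 at P3 (4.77), and the peaks overlapping another library 4 (0). With the upper 50% of the scores, members, peaks and fate factors with a narrow peak each fell to 0 at P5, and broad regions were 2 at P5 (4) and 11 at P3 (20). Within 100 kb of a start site, members, peaks and fate factors were 0, 0 and 0 at P5 and 3, 3 and 7 at P3 (6, 12 and 15), and the broad regions 3 at P3 (20). With CACGTG alone, E-box matches were in 1 peak at P3 (3), with any CANNTG in 1 at P5 (0) and 5 at P3, and with 300 bp on either side in 1 of 1 at P5 (82.5% of the list) and 9 of 12 at P3 (83.6%).

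When each library of P5 was left out, members, peaks and density were 0 to 0, fate factors 1 to 8 and broad regions 9 to 10. When each library of P3 was left out, members were 0 to 4, peaks 0 to 11, density 0 to 3.90, fate factors 4 to 28 and broad regions 6 to 35, with the lower value of each without replicate 4. The difference between the ages in member peaks per library was -11.0 to 0, and 0 without P3 replicate 4. The cause of these changes was not tested. RefSeq assignment and the other overlap rules moved no count by over 1.5 times.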

Other observations

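Some fate factors outside the 7 genes, chosen here after their values were seen, had narrow peaks in a single library of P5. P5 replicate 3 listed peaks for 8 of the 79 fate factors (all genes 4.17%), among them Isl1, a LIM homeodomain factor of bipolar and ganglion cells (score 4.10, 41.4 kb downstream), Meis2 (3.66, 3.22 and 3.22, in its introns), Hes5, a Notch effector (3.37, 9.40 kb upstream, with 1 E-box match) and Tfap2a (3.08, 3.19 kb upstream). P5 replicate 2 listed 1 (all genes 0.695%), for Sox11 (3.87, 550 kb upstream). The pooled narrow list of P5 held none of these genes. At P3, Isl1 had 4 narrow peaks in replicate 4 (3.81, 3.26, 3.26 and 2.90) and 1 in the pooled list (2.32), and Sox11 had 1 in replicate 4 (3.99), at other distances from their start sites than at P5.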
